A study of Mus musculus with 6 samples.

Results

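The posterior Hox genes are the members of the Hox family that lie at the 5′ end of the Hox clusters and act furthest back along the body. They were followed here with Evx2, the homeobox gene beside the HoxD cluster, and Hottip, the long non-coding RNA beside the HoxA cluster. Members were the rows of the deposited count table whose gene name field holds Hoxa9, Hoxa10, Hoxa13, Hoxb13, Hoxd12, Hoxd13, Evx2 or Hottip, and each symbol was found in 1 row, giving 8 of the 2033 rows. The tissue was mouse colon, from mice with long-term exposure to PFOA (perfluorooctanoic acid, a persistent fluorinated surfactant) and from control mice, with 3 RNA-seq libraries per group. The labels state no dose, duration, strain, sex, age, genotype or part of the colon for either group. They mention 6 frozen mice per group without tying mice to libraries, so p-values measure only the spread between libraries, which may be technical. The comparison asked which genes of the colon differ after the exposure.

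The table holds only rows that differ between these same groups, with no row whose log2 ratio of mean counts lies between -1.08 and 0.92, and this limits every test below. Of the 1608 rows that passed the low-count filter, 100% passed edgeR's quasi-likelihood test at an adjusted p of 0.05, with 50.0% lower and 50.0% higher in PFOA. Listed counts per library ranged from 2136897 to 2269892 in PFOA and from 1771120 to 2155472 in control, and are not sequencing depths. A gene with no row is not analysed here, and its level is not known.

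Hox genes encode homeodomain transcription factors that are arranged in clusters in the order of their domains along the body. Genes of groups 9 to 13 belong to the posterior end, and group 13 genes mark its last stretch, which includes the hindgut and the genital bud. Group 13 genes also act in the limb buds. In the gut, group 13 genes are known for their expression in its most posterior stretch. Hottip is transcribed outwards from the 5′ end of HoxA and has been described in human cells as an activator of the neighbouring HOXA genes.

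All 8 rows were lower in PFOA libraries than in control libraries, and they fell into a nearly absent set and a reduced set. Hoxb13, Hoxd13, Hoxd12, Evx2 and the Hottip row were nearly absent from PFOA libraries, with at most 6 counts in any of them. The Hoxa13 row kept 5.98% of its control level, Hoxa9 33.8% and Hoxa10 35.4%. The start regions of a part of both sets are shown first, because the rows lie side by side in their clusters and were all lower in PFOA. Each window runs from 250 bases before to 50 bases after a RefSeq start (GRCm38.p6), written 5′ to 3′ on the gene's own strand. The windows are chr2:74667975-74668274 (plus strand) for Hoxd13, chr2:74659508-74659807 (minus strand) for Evx2, chr2:74674763-74675062 (plus strand) for Hoxd12, chr6:52262525-52262824 (plus strand) for Hottip and chr6:52260831-52261130 (minus strand) for Hoxa13. Capitals mark matches to the motifs described after the sequences.
Hoxd13: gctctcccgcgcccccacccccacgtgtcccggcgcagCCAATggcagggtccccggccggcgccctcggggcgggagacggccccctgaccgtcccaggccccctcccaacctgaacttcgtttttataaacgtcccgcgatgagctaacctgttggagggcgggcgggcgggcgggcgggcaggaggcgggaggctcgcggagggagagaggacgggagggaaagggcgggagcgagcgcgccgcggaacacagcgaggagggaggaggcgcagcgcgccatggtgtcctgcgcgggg
Evx2: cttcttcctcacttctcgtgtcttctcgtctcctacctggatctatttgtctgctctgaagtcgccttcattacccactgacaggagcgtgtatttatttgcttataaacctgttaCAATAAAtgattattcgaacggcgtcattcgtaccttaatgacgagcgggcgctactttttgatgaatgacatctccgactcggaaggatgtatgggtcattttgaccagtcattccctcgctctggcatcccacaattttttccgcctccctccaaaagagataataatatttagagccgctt
Hoxd12: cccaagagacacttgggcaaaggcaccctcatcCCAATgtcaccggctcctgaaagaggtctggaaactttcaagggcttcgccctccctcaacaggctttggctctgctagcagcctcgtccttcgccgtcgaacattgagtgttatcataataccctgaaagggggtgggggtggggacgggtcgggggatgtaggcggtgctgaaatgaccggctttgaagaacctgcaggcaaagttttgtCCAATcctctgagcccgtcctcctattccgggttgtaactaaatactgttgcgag
Hottip: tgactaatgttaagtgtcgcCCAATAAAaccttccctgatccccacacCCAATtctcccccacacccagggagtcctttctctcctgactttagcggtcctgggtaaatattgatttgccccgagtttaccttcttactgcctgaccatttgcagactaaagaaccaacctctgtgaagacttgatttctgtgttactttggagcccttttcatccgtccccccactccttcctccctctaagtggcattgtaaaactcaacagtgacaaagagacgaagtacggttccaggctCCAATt
Hoxa13: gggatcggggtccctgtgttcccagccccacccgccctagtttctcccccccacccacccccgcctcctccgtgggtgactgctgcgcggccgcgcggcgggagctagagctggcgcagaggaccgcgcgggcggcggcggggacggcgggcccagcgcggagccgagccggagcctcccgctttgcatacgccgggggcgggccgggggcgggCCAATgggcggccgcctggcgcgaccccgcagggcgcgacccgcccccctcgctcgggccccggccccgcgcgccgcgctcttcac

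The motifs searched, each on both strands, were CAATAAA, the core of sites bound by group 13 Hox proteins, TCGTAAA, another core of the same proteins, CCATAAA, a core bound by the caudal homeobox protein Cdx2, and CCAAT, a general promoter box that can overlap CAATAAA by its last 4 letters. Of the 8 members, 7 had a window, and Hoxa10 had 2. CAATAAA was found in the windows of Evx2 (position -134 from the start) and Hottip (position -229), and in 4.6% of all 32851 windows. In Hottip this match overlaps a CCAAT box. TCGTAAA and CCATAAA had 0 matches in the 8 windows and lay in 0.597% and 2.75% of all windows. CCAAT was found in Hoxa13 (position -36), Hoxd13 (position -212), Hoxd12 (positions -217 and -5), Hottip and the Hoxa10 window at chr6:52234890-52235189, against 37.4% of all windows. The windows of Hoxa13 and Hoxd13 were rich in G and C, at 81% and 74.3%, against 44.3% in Evx2 and a median of 52.7% over all windows. These matches describe letters, and binding was not measured.

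Hoxb13, the only Hox gene of group 10 or above in the HoxB cluster and a factor known from the hindgut and prostate, had 0, 6 and 3 counts in PFOA libraries, against 9884, 5730 and 7988 in control libraries. The groups did not overlap, and the lowest control library had 5730 counts where the highest PFOA library had 6. The control-to-PFOA ratio of scaled counts was 2544, with a 95% counting interval (Clopper-Pearson) from 1340 to 5564. The fitted log2 fold change was -11.27 with an SE of 0.71 over 3 and 3 libraries (adjusted p = 4.69e-05 by edgeR). It was -12.19 without PFOA replicate 2 and -10.75 without PFOA replicate 1. The row runs over chr11:96194316-96210066 (mm10, plus strand), while the annotated gene ends at 96197447. It thus includes 12619 bases beyond the gene, from assembled transcripts, and how its reads divide between gene and extension was not tested.

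Hoxd13, the last gene of HoxD and a factor of the terminal hindgut, genitals and digits, had 1, 0 and 0 counts in PFOA libraries, against 3297, 345 and 1935 in control libraries. Control replicate 2 lay far below the other controls but still far above every PFOA library. The control-to-PFOA ratio was 5410, with a 95% counting interval from 970.5 upwards. The fitted log2 fold change was -11.95 with an SE of 1.29 over 3 and 3 libraries (adjusted p = 2.65e-04 by edgeR), -13.87 without PFOA replicate 1 and -11.19 without control replicate 1. No other tested row had a larger fitted fold change in either direction, but the fit rests on 1 count in PFOA. The row (chr2:74667165-74671599, plus strand) starts 1145 bases before the annotated gene.

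Hoxd12, its neighbour and a posterior homeobox gene of limb and hindgut, had 0, 1 and 0 counts in PFOA libraries, against 178, 20 and 23 in control libraries. Most of the control counts came from control replicate 1, and the groups still did not overlap. The control-to-PFOA ratio was 214, with a 95% counting interval from 38.1 to 8505. The fitted log2 fold change was -7.32 with an SE of 1.48 over 3 and 3 libraries (adjusted p = 0.0026 by edgeR), -5.52 without control replicate 1 and -9.20 without PFOA replicate 2.

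Evx2, an even-skipped type homeobox gene 7.61 kb from the Hoxd13 row, had no count in any PFOA library, against 265, 53 and 138 counts in control libraries. Its control libraries stood in the same order as those of Hoxd13, with replicate 1 highest and replicate 2 lowest. Evx2 was at least 147-fold lower in PFOA, taking a floor of 3 counts over the group. The fitted log2 fold change, which depends on the prior count, was -10.23 with an SE of 1.29 over 3 and 3 libraries (adjusted p = 0.00106 by edgeR), and -9.53 without control replicate 1.

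The Hottip row also had no count in any PFOA library, against 201, 352 and 430 counts in control libraries. It merges Hottip with the small predicted RNA genes Gm27985 and Gm27383 (chr6:52262592-52267603, plus strand). It was at least 318-fold lower in PFOA on the same floor (fitted log2 difference -11.33, SE 0.75 over 3 and 3 libraries, adjusted p = 1.62e-04 by edgeR). A count of 0 sets only this limit, so lower levels of Evx2 and Hottip in PFOA could not be seen.

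**Figure D1:**
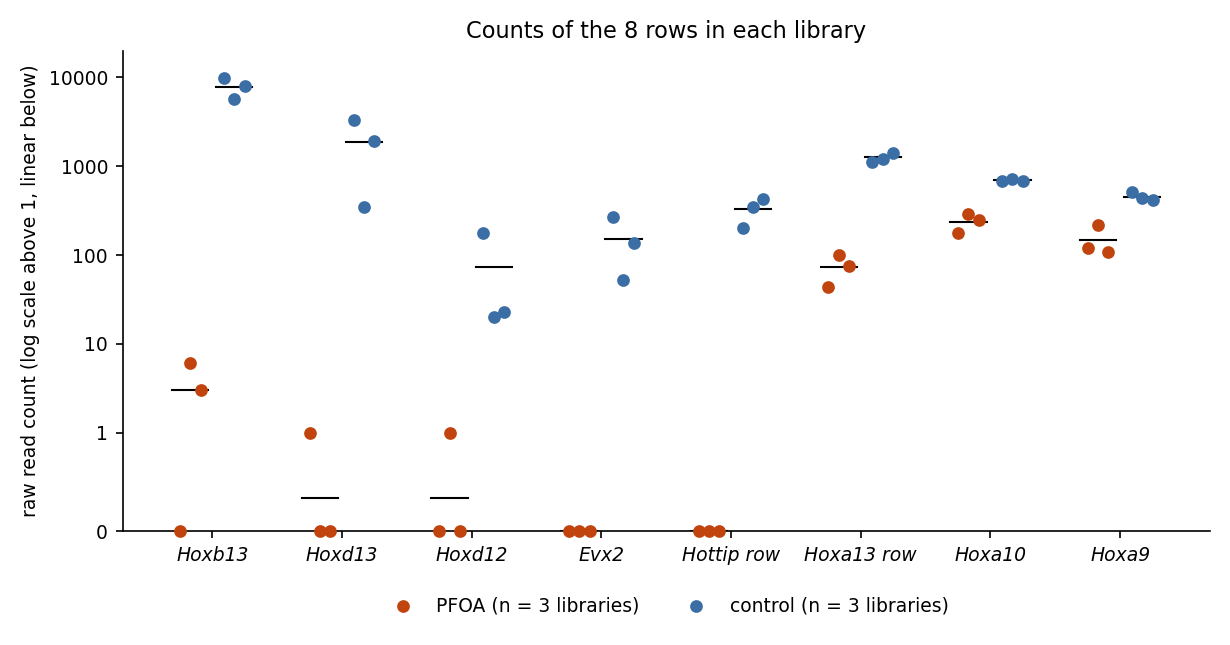
Raw read counts of the 8 rows (y axis, log scale above 1 and linear below) in 3 PFOA libraries (left of each pair) and 3 control libraries (right), with a bar at each group's mean. Hoxb13, Hoxd13, Hoxd12, Evx2 and the Hottip row had at most 6 counts in any PFOA library, while the Hoxa13 row, Hoxa10 and Hoxa9 kept 44 or more.

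Hoxa13, the group 13 gene of HoxA and a factor needed for hindgut and urogenital development, was the only group 13 member that kept a sizeable count. Its row, which is merged with the overlapping gene 9530018H14Rik (chr6:52256218-52261027, minus strand), had 44, 100 and 75 counts in PFOA libraries, against 1131, 1218 and 1424 in control libraries. Control libraries lay close together and PFOA libraries spread about as much as those of Hoxa9. The row was 16.7-fold lower in PFOA (fitted log2 difference -4.08, SE 0.31 over 3 and 3 libraries, adjusted p = 7.54e-05 by edgeR).

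Hoxa10 and Hoxa9, Abdominal-B type genes of lower groups that are known from the uterus, limb and blood, were reduced by a smaller factor. Hoxa10 (chr6:52231197-52240854, minus strand) had 178, 291 and 246 counts in PFOA libraries, against 678, 721 and 682 in control libraries. Hoxa9 (chr6:52223100-52231089, minus strand) had 121, 216 and 108 counts in PFOA libraries, against 508, 436 and 414 in control libraries. Neither overlapped between groups. Hoxa10 was 2.82-fold lower (fitted log2 difference -1.51, SE 0.23 over 3 and 3 libraries, adjusted p = 8.35e-04 by edgeR), and Hoxa9 was 2.96-fold lower (fitted log2 difference -1.57, SE 0.31 over 3 and 3 libraries, adjusted p = 0.0023 by edgeR). The Hoxa9 row also holds the transcript of the microRNA gene Mir196b, whose own part in the counts is not known.

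Of the 8 members, 8 were tested and 8 passed as lower, where 50.0% of all tested rows did, and all 8 had groups that did not overlap, as did 48.4% of all listed rows on the lower side and 47.4% on the higher side. With every tested row called, this count shows the direction of the members and no more. The members' median log2 fold change was -8.78, or -7.26 with Evx2 and Hottip set at their bounds, against -1.80 for the 804 tested rows that were lower. Control-to-PFOA ratios of 100 or more, with the floor applied, were reached by 1.23% of the listed rows, and Hoxb13, Hoxd13, Hoxd12, Evx2 and the Hottip row are among them. An empty PFOA group was found in 5.12% of the listed rows.

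Ratios between members within a library do not depend on the scaling between libraries, and they set the Hoxa13 row apart from Hoxa10 and Hoxa9. The ratio of Hoxa13 to Hoxa10 counts was 0.247, 0.344 and 0.305 in PFOA libraries, against 1.67, 1.69 and 2.09 in control libraries. The ratio of Hoxa13 to Hoxa9 was 0.364, 0.463 and 0.694 in PFOA libraries, against 2.23, 2.79 and 3.44 in control libraries. Both ratios kept the groups apart. The ratio of Hoxa9 to Hoxa10 was 0.680, 0.742 and 0.439 in PFOA libraries, against 0.749, 0.605 and 0.607 in control libraries, and these ranges overlapped.

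Levels were compared between members per kb of row length as listed in the table, in CPM per kb, where CPM are counts scaled by TMM-adjusted totals of the tested rows. In PFOA libraries, Hoxa9 averaged 12.96 ± 4.74, Hoxa10 12.52 ± 2.25 and the Hoxa13 row 8.6 ± 2.87 CPM per kb (SD, n = 3), with overlapping ranges. In control libraries, Hoxb13 stood first at 253.5 ± 69.7, followed by Hoxd13 at 237.5 ± 193.5 and the Hoxa13 row at 145 ± 11.6 CPM per kb (SD, n = 3). The range of Hoxd13, from 44.9 to 432, took in both of the others, while Hoxb13 and the Hoxa13 row did not overlap. The Hottip row (50.4 ± 16.5), Hoxa9 (38.6 ± 5.42) and Hoxa10 (35.7 ± 2.15) followed with overlapping control ranges. Evx2 (17.3 ± 12.5) and Hoxd12 (14.1 ± 17.5) had the lowest mean control levels, and their ranges overlapped too. The highest control library of Hoxd12 (34.2 CPM per kb) reached into the range of Hoxa10. Per kb of annotated exon in GENCODE M21, control levels rose to 1694 ± 466 for Hoxb13 and 101 ± 6.08 for Hoxa10, whose rows are much longer than the annotated exons. On that scale Hoxb13 did not overlap Hoxd13 (356 ± 290 CPM per kb), and Hoxa10 lay above Hottip (53.6 ± 17.5) and Hoxa9. Counts of the whole row were divided here by exon bases alone, so reads outside the exons still count. The Hoxb13 row has 14743 bases against 2206 in exons, and the Hoxa10 row 9242 against 3270. How much of the rise and of this order comes from such reads was not tested.

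Among the members, control libraries disagreed most on Hoxd13, Hoxd12 and Evx2. The highest control library exceeded the lowest by 9.63-fold for Hoxd13, 8.97-fold for Hoxd12 and 5.04-fold for Evx2 in CPM. The Hottip row (1.99-fold), Hoxb13 (1.74-fold), Hoxa9 (1.32-fold), the Hoxa13 row (1.17-fold) and Hoxa10 (1.13-fold) varied less. Outside the members this was not a trait of HoxD, with 1.14-fold for the Hoxd3 and Hoxd4 row, 1.79-fold for Hoxd8 and 3.69-fold for the Hoxb3 to Hoxb6 row. Control replicate 1 was highest for Hoxd13, Hoxd12 and Evx2, at 1.82, 2.44 and 1.78 times their control means. It was also highest for Hoxb13 (1.29 times) and Hoxa9 (1.15 times). The Hottip and Hoxa13 rows went the other way, with control replicate 1 lowest at 0.635 and 0.926 times their control means. Control replicate 1 also had the highest count of Cnn1, the smooth muscle protein calponin, at 12148 against 5275 and 7665 in control replicates 2 and 3; its part in the HoxD values was not tested.

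**Figure D2:**
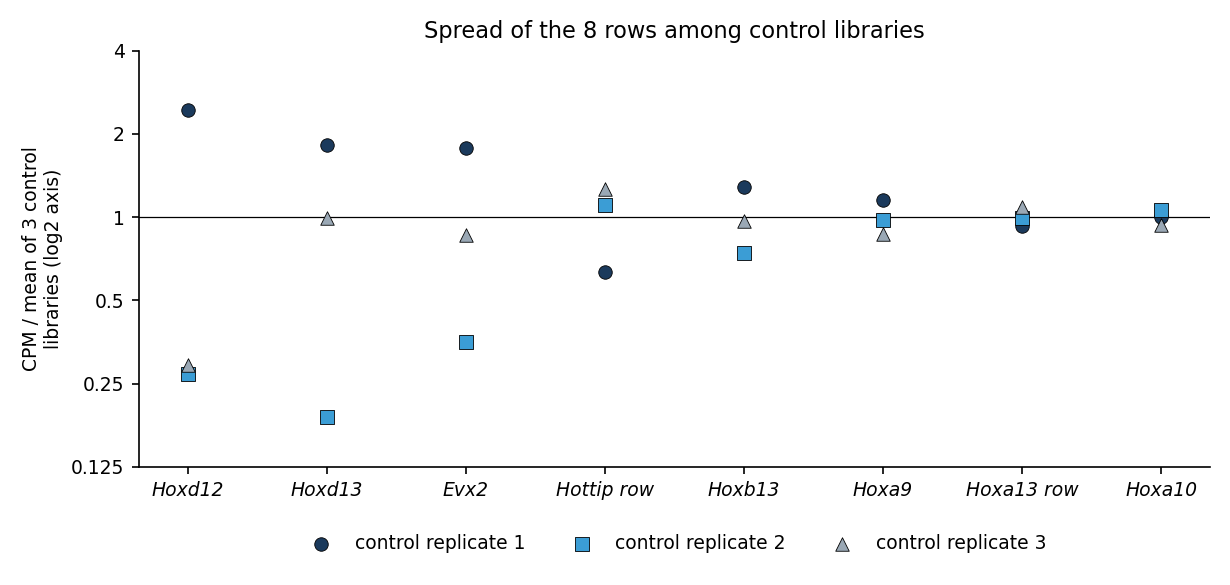
CPM of each row in the 3 control libraries divided by the row's control mean (y axis, log2 scale), with a marker for each library. Control replicate 1 stood highest for Hoxd12, Hoxd13, Evx2, Hoxb13 and Hoxa9 and lowest for the Hottip and Hoxa13 rows. Hoxa10 and the Hoxa13 row lay close to 1 in all control libraries.

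Along the clusters, the members formed the 5′ side of a change in direction in HoxB and HoxD, and in HoxA there was no change in direction. In HoxD, Evx2, Hoxd13 and Hoxd12 were lower, and the next listed rows, Hoxd3os1 and Hoxd8, starting 25.5 kb and 26.9 kb past Hoxd12, were higher. In HoxB, the Hoxb13 row was lower, and the next listed row, Hoxb7, 75.5 kb further, was higher, with 331, 332 and 391 counts in PFOA libraries, against 32, 0 and 6 in control libraries. Further along, a single row for Hoxb3, Hoxb4, Hoxb5 and Hoxb6 held 15000, 17946 and 20619 counts in PFOA libraries, against 2200, 601 and 711 in control libraries, where replicate 1 stood above the other controls. In HoxA all 12 listed rows were lower and 4 of them had no count in PFOA. Hoxc9, Hoxc10 and Hoxc11, posterior genes that the choice of members left out with the rest of HoxC, went the other way at low counts. Hoxc10 had 10, 8 and 11 counts in PFOA libraries and none in control libraries, Hoxc9 had 10, 5 and 9 against 0, 0 and 1, and Hoxc11 had 2, 11 and 5 against none. Lower posterior counts were thus seen in HoxA, HoxB and HoxD, and not in HoxC.

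The listed rows around the HoxA members and on the outer side of Hoxb13 were lower in PFOA too. Hoxa11os, a non-coding RNA antisense to Hoxa11 that is merged with small predicted RNAs, had 99, 176 and 147 counts in PFOA libraries, against 3313, 2116 and 1952 in control libraries. It was 16.97-fold lower in PFOA (fitted log2 difference -4.11, SE 0.33 over 3 and 3 libraries, adjusted p = 9.64e-05 by edgeR), close to the Hoxa13 row. Further out on the Hottip side, the homeobox gene Evx1 had no count in PFOA libraries, against 9, 16 and 9 in control libraries, at least 10.99-fold lower. Its antisense partner Evx1os had none against 4, 9 and 3. Hotairm1, a non-coding RNA at the anterior end of HoxA, was 2.46-fold lower (fitted log2 difference -1.31, SE 0.41 over 3 and 3 libraries, adjusted p = 0.0154 by edgeR).

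Beside Hoxb13, 7 more listed rows were lower. Ttll6, a tubulin glutamylase gene, had 71, 327 and 434 counts in PFOA libraries, against 2247, 1427 and 1614 in control libraries. An unannotated locus on the opposite strand within Ttll6 (chr11:96144235-96147663) had 0, 1 and 0 counts in PFOA libraries, against 393, 268 and 315 in control libraries. Gm11535, a non-coding RNA between Ttll6 and Hoxb13, had no count in PFOA libraries, against 52, 37 and 65 in control libraries, at least 49.8-fold lower. An assembled locus opposite the Hoxb13 row (chr11:96198865-96203613, minus strand) had 0, 2 and 0 counts in PFOA libraries, against 173, 190 and 141 in control libraries. On HoxA, an unannotated locus on the strand opposite Hoxa9 and Hoxa10 (chr6:52229931-52233602) had 1, 12 and 6 counts in PFOA libraries, against 143, 87 and 86 in control libraries. Whether counting used strand is not given in the sources used here, so that reads of overlapping rows cannot be told apart.

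**Figure D3:**
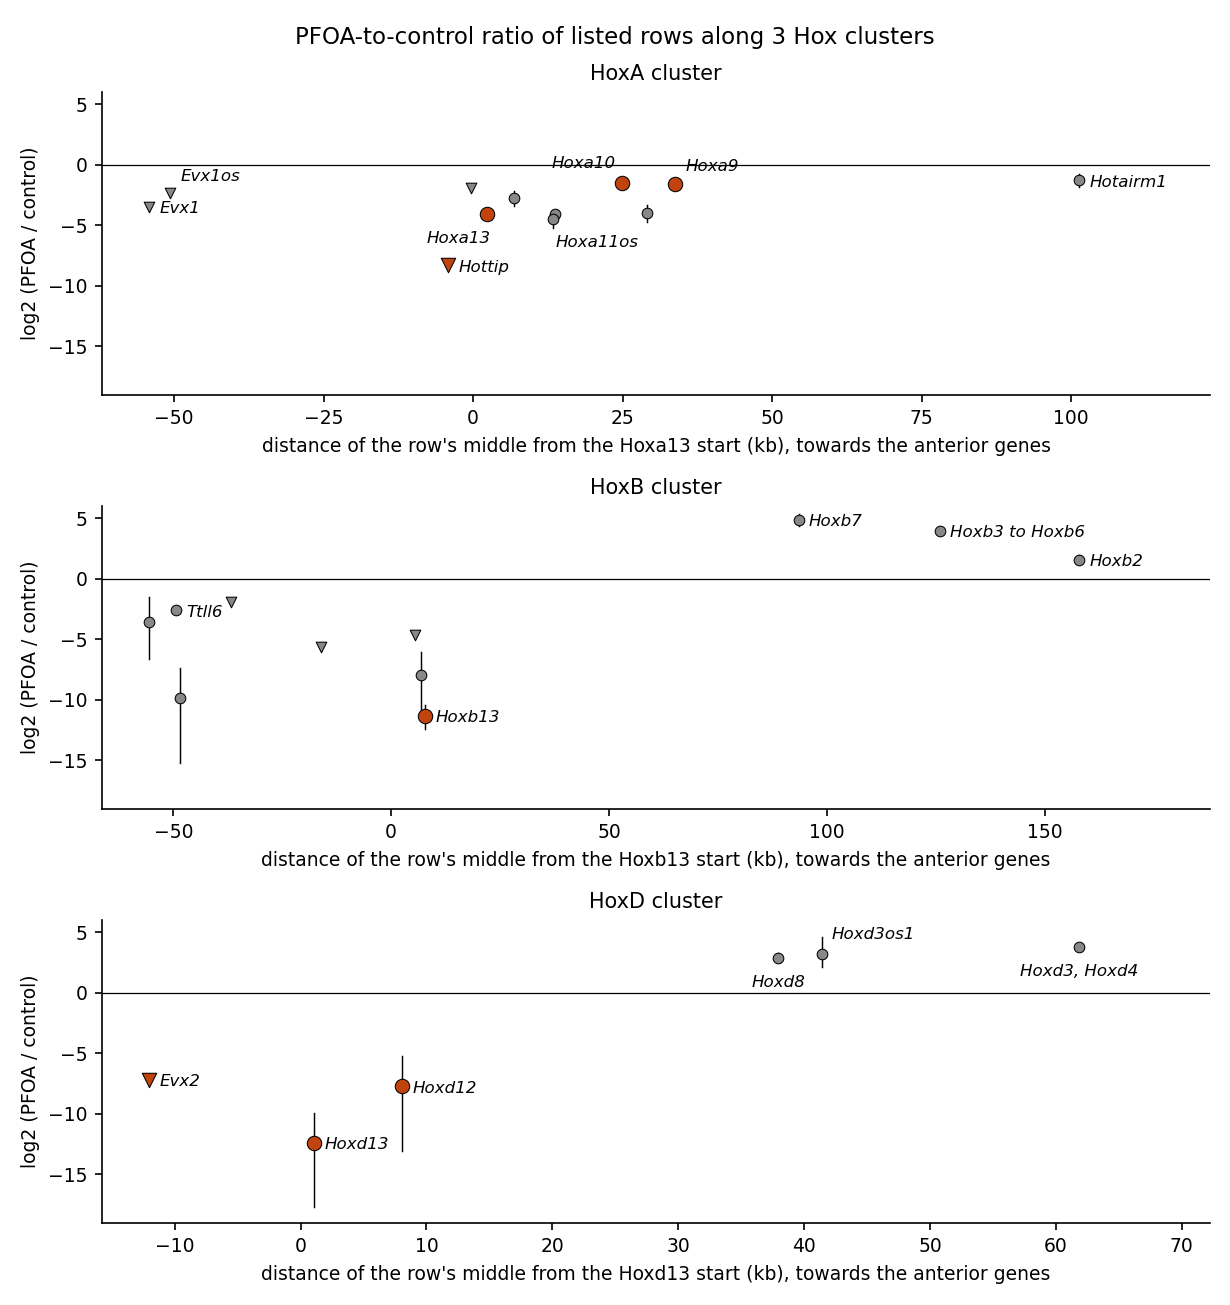
Log2 ratio of scaled PFOA to control counts (y axis) of listed rows against the distance of the row's middle from the start of the group 13 gene in kb (x axis, anterior genes to the right) in HoxA, HoxB and HoxD. Large orange symbols are the 8 rows described here, grey ones are neighbours, triangles are bounds for rows with no PFOA count, and lines are 95% counting intervals. The HoxB and HoxD rows switch from lower to higher between Hoxb13 and Hoxb7 and between Hoxd12 and Hoxd8, and the HoxA rows are all lower.

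The make-up of the listed Hox counts differed between the groups. A shift was built in, because the table holds only rows that differ and the 11 Hox rows outside the members were all higher in PFOA. These are shares of raw counts, led by 2 long rows, Hoxb13 (14743 bases) and the Hoxb3 to Hoxb6 row (55015 bases). The 8 rows took 2.07%, 2.97% and 1.84% of the counts in all listed Hox rows, Evx2 and Hottip in PFOA libraries, against 87.1%, 92.3% and 93.7% in control libraries. In PFOA libraries, Hoxa9 and Hoxa10 supplied 81.9% to 86.9% of what was left of the 8 rows. In control libraries Hoxb13 alone supplied 61.2% to 64.6%. Summed CPM of the 8 rows was 184 to 289 in PFOA libraries and 4295 to 7870 in control libraries.

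**Figure D4:**
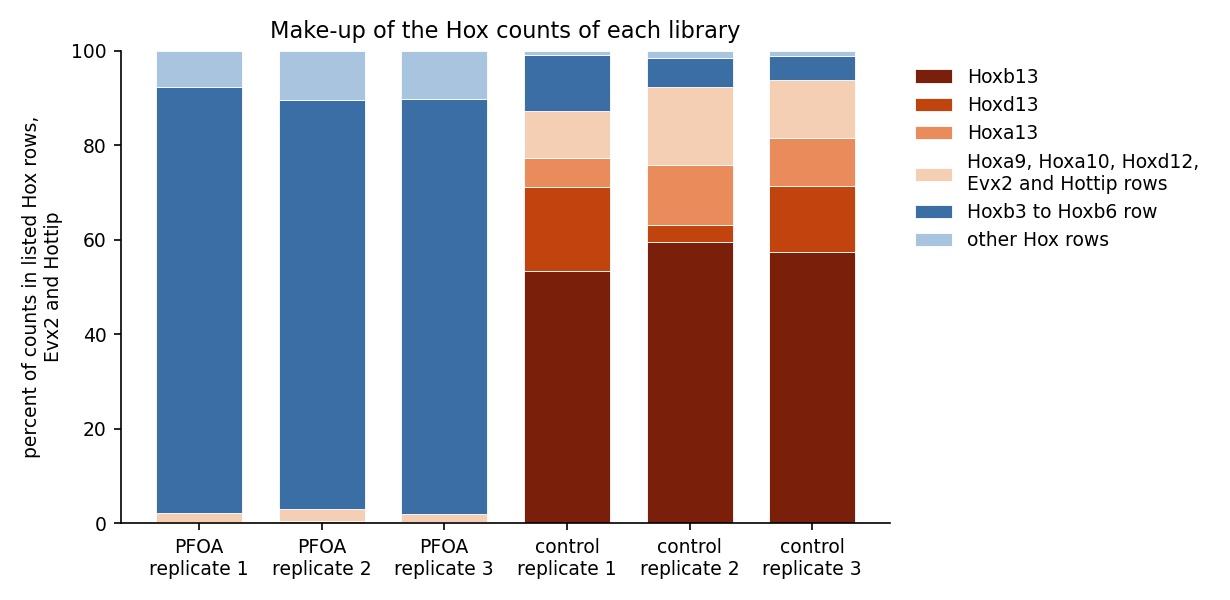
Percent of the counts in all listed Hox rows, Evx2 and Hottip (y axis) taken by each row or group of rows in each library, with PFOA libraries to the left. The 8 rows described here (red to orange) take 1.84% to 2.97% in PFOA libraries and 87.1% to 93.7% in control libraries. Blue rows are the more anterior genes and HoxC, with the posterior genes Hoxc9, Hoxc10 and Hoxc11.

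Among the genes of the wider Hox system, few had a row. Of the 39 Hox genes, 21 had one, in 17 rows. Of the 11 genes of groups 9 to 13 in clusters A, B and D, 6 did, and Hoxa11, Hoxb9, Hoxd9, Hoxd10 and Hoxd11 are not analysed here. Of the Hox rows, 13 were tested, and 6 were lower and 7 higher in PFOA. The list of 9 Hox cofactors (Pbx, Meis and Pknox genes) had 0 rows. Of 31 regulators of Hox expression, 1 had a row: Cdx2, the caudal homeobox factor of the intestinal epithelium, had 4617, 3549 and 4066 counts in PFOA libraries, against 619, 1313 and 868 in control libraries (fitted log2 difference 2.18, SE 0.33 over 3 and 3 libraries, adjusted p = 8.43e-04 by edgeR).

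A short list of distal colon genes went in the same direction as the members. Atp12a, the proton-potassium pump of the distal colon, Insl5, a hormone of colonic L cells, and the sodium channel subunits Scnn1b and Scnn1g made up this list of 4. All 4 were lower in PFOA, as were 50.0% of all tested rows. The list was chosen with earlier results of these data known, and the table holds only rows that differ. This count thus shows direction and no more. Their summed CPM was 138 to 164 in PFOA libraries and 5684 to 11690 in control libraries. Of 10 small intestinal markers 4 had a row, with Alpi, Apob and Sis higher and Rbp2 lower in PFOA. The part of the colon is not labelled, so a difference in sampled position and an effect of PFOA cannot be told apart for any member. In bulk tissue, fewer cells that express a gene and less RNA per cell cannot be told apart either.

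Markers of other cell types were mostly without a row. The lists of epithelium (7 genes), fibroblasts (6), enteric neurons and glia (7), endothelium (3), immune cells (6) and prostate and seminal vesicle (5) had 0 rows, so the colon label could not be checked against its general epithelial markers. Of 6 smooth muscle genes only Cnn1 had a row. It was lower in PFOA like the members, with 2758, 4210 and 4489 counts in PFOA libraries, against 12148, 5275 and 7665 in control libraries. The groups did not overlap, and the difference was 2.12-fold (fitted log2 difference -1.11, SE 0.34 over 3 and 3 libraries, adjusted p = 0.0142 by edgeR). Of 8 squamous epithelium genes 2 had a row, Krt13 with no count in PFOA libraries against 5, 3 and 3 in control libraries, and Dsg3 with 27, 7 and 7 against 0, 2 and 1. Of 4 adipocyte genes, Adipoq, Plin1 and Cfd had a row with overlapping groups, and their summed CPM was 1.41 to 373 in PFOA libraries and 1.36 to 18.04 in control libraries. The part of these cell types in the members' values was not tested.

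Likeness to the 5 nearly absent rows was measured as Pearson's r of log2 CPM with the mean of their standardised profiles over the 6 libraries. Because the rows of the table differ between the groups, high values are common: of 1193 rows compared, 42 reached 0.99 or more. The 5 highest outside the Hox family were Slc6a8, the creatine transporter (r = 0.999), Kcnf1, a potassium channel subunit (r = 0.998), Hmcn1, the matrix protein hemicentin (r = 0.998), Anxa8, an annexin (r = 0.998), and Itih5, of the inter-alpha-trypsin inhibitor family (r = 0.997). Their differences were smaller, from 4.02-fold lower for Slc6a8 to 23.2-fold lower for Anxa8. By absence rather than likeness, 8 rows had at least 100 counts in every control library and at most 3 in every PFOA library. They were Hoxd13, the Hottip row, the loci opposite Ttll6 and opposite the Hoxb13 row given above, another unannotated locus on chromosome 11, and Casp14, Klk15 and Fxyd4. Casp14, a caspase of cornifying epithelium, had no count in PFOA libraries, against 648, 397 and 410 in control libraries, and Fxyd4, a regulator of the sodium pump in colon and kidney, had none against 282, 191 and 207.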

How the data were processed

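RNA from mouse colon was sequenced in 3 PFOA and 3 control libraries (SMARTER mRNA-Seq kit, according to the labels). HISAT2, HTSeq and mm10 are listed in the submitters' processing notes, without versions. The authors deposited raw read counts per gene row for 2033 rows, with positions and row lengths (a length in bases, another column of the authors' table), per the file headers. Strand use, the treatment of multi-mapping reads, the transcript assembler and how rows were selected were not stated, that is, not given in the sources used here.

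Counts were tested with edgeR 4.0.16 in R 4.3.3: filterByExpr, TMM scaling, glmQLFit and glmQLFTest without covariates, two-sided, Benjamini-Hochberg adjustment over the 1608 tested rows. SE is the absolute log2 fold change divided by the square root of F. A fold is the ratio of the groups' summed counts after division by TMM-adjusted totals, with a group total of 3 counts standing in where the group was empty. Intervals and floors cover counting error only. The TMM assumption that most rows do not change is not met by this table, so the scaling behind CPM and folds could not be checked. The code of the fit was run on simulated data in which most rows did not change. That setting is unlike this table, where every tested row was called, so the run cannot check the values given here. No 2 libraries of a group agreed within sampling noise (smallest chi-square per degree of freedom 22.4). Exon lengths came from GENCODE M21 and promoter windows from RefSeq (GRCm38.p6).

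Members and lists were chosen with earlier results of these data known. Named besides the members were the Hox rows, up to 6 rows per list, the 5 rows most like the nearly absent rows, and rows with at least 100 counts in every control and at most 3 in every PFOA library. Neighbouring rows within the cluster windows were named after their values were seen. The planned tests assumed an unselected table. They were kept, and are read only as directions and as sizes relative to the listed rows. Alternatives were DESeq2 1.42.0, limma-voom (limma 3.58.1), other scalings and filters, the replicate number as a block and each library left out.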

Additional observations from a re-analysis of the deposited data

How the results depend on the processing

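All 8 members were lower and past an adjusted p of 0.05 in each of the 15 alternatives run: DESeq2, limma-voom, library totals alone, DESeq2 size factors, no low-count filter, 1 CPM in 3 libraries, the replicate block, removal of the 20 most abundant rows, scaling without Hox rows and each library left out. Nearly all rows of the table passed too, with 1601 of 1608 in DESeq2 and 1587 in limma-voom. The lowest was 1492 of 1608, without control replicate 3. That the members passed thus shows their direction and no more. Library totals alone moved the median log2 fold change of all rows by -0.204. Over all rows, lower calls ranged from 770 to 804 and higher calls from 712 to 773 when a library was left out, and the replicate block gave 799 lower and 780 higher. The deviations of same-numbered libraries correlated at 0.114, -0.0306 and 0.102, and those of other pairs at -0.1495 to 0.117. Pairing by replicate number was thus not seen, but deviations from means of 3 libraries cannot exclude it. The block changed no member's call. The size of the near-absent differences rests on few PFOA counts: with limma-voom the log2 fold change was -5.88 for Hoxd12, -10.77 for Hoxd13, -7.92 for Evx2 and -9.25 for Hottip, all smaller than with edgeR, and -11.69 for Hoxb13, which was larger; the cause was not tested. The members' mean share of Hox counts was 2.29% in PFOA and 91.0% in control, and 1.96% to 2.52% and 89.7% to 92.99% with a library left out. With member rows of a single symbol only, which leaves out Hoxa13 and Hottip, the control share was 78.8%. With 0 to 9 counts per member in PFOA for the near-absent rows, ratios among these rows could not be ordered.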
